A study of Prunus avium with 27 samples.

Results

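Of the 25635 regions for which an H3K4me3 signal was deposited from sweet cherry flower buds, 2158 (8.42%) were wider than 2000 bp and carried no gene identifier, and these long regions are described here. The other 23477 regions were all 2000 bp wide. A 2000 bp region begins 500 bp upstream of a gene and ends 1500 bp inside it, and a long region is the union of such windows from genes that lie close together. The genes of a long region were those whose locus placed a window exactly at its left or right edge. By this rule 2144 long regions had 2 edge genes, which together are 4288 of the 28087 genes with a PRUPE identifier, and no gene belonged to more than 1 pair. A further 13 long regions had 1 edge gene and 1 had more than 1 candidate at an edge, and these are counted but not paired.

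H3K4me3 is histone H3 trimethylated at lysine 4, a mark that in plants, as in other eukaryotes, lies over the starts of transcribed genes and extends into the first part of the gene. Neighbouring genes can be divergent, with their starts side by side and transcription running apart, tandem, with both read in the same direction, or convergent, with their ends side by side. In buds of fruit trees the mark has been followed at genes of winter dormancy, the state in which a bud does not open before it has passed through a period of cold.

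The design sets a chromatin mark beside the RNA of the same buds as dormancy proceeds and ends. All samples came from flower buds of the sweet cherry cultivar Burlat, grown in an orchard and taken from the same branches for both assays. Buds of 21 October 2014 and 5 December 2014 are labelled dormant, and buds of 27 January 2015 are labelled non-dormant. Each date had 3 RNA libraries and 2 H3K4me3 libraries (replicates 2 and 3), and the 6 H3 and 6 input libraries are not analysed here. All groups share cultivar, organ and orchard, and January is the only non-dormant date, so the dormancy label and the date cannot be told apart. Whole buds were used, so fewer cells of a type and less RNA or mark per cell cannot be told apart. Whether replicates stand for different trees is not labelled, so the spread that the p-values rest on may be technical. The identifiers come without names or functions, so the tissue could not be checked against marker genes, and none of the genes below is given a role. No genome build is given, so gene order and positions are those of the deposited tables.

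The H3K4me3 values were a normalised signal in whole multiples of 1 step per library, which gave 14216613 to 28126160 recovered reads per library. January replicate 3 and October replicate 2 had the fewest. Between 25.87% and 32.76% of all regions stood at the lowest value of their library, called the minimum here. RNA was in TPM (transcripts scaled to a common total), which keeps no depth. The RNA tables give no strand, so strands were inferred from which side of a gene its window fell on.

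Tandem pairs made up 1164 of the 2144 long regions (54.3%), divergent pairs 711 (33.2%) and convergent pairs 269 (12.5%). Divergent starts lay close to each other, with a median distance of 604 bp, and in 37 pairs the loci overlapped at their starts. The starts of tandem pairs lay a median of 1509.5 bp apart and those of convergent pairs 2555 bp apart. Genes of tandem and convergent pairs were short, with a median locus length of 904.5 and 827.5 bp against 2227 bp in divergent pairs. A divergent region therefore holds the stretch between the starts plus the first 1500 bp of both genes, or the whole of a shorter gene. A short gene can thus lie wholly inside a region of any orientation. The narrowest long region was 2005 bp and the widest 7986 bp, and 254 of the 2-gene regions were over 4000 bp, each of which also overlapped a further gene between its edge genes. In all, 379 two-gene regions were overlapped by a further gene, and 112 pairs had overlapping loci. In 89 pairs, all tandem, both identifiers share a base name (m1g and m2g). No source used here says how RNA reads were assigned to strands or to near-identical genes, so the values of overlapping and same-name pairs are uncertain.

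**Figure D1:**
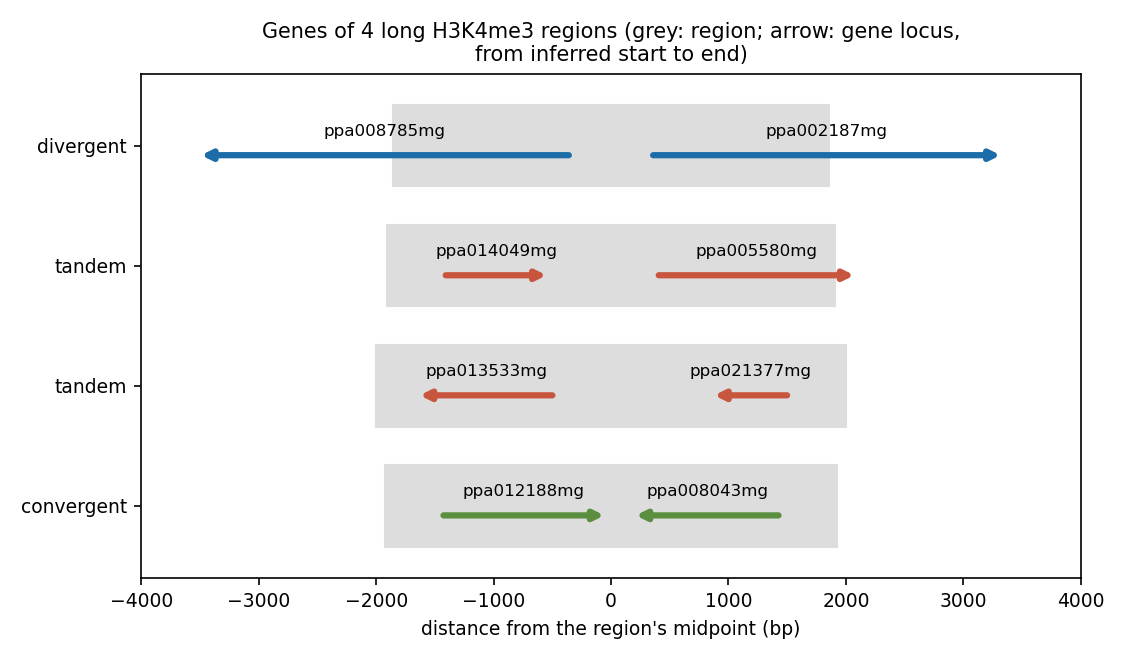
Position of the edge genes of 4 long regions as distance from the midpoint of the region (bp). Grey bars are the regions and arrows the gene loci from inferred start to end, and a further gene inside the third region is not drawn. The divergent starts lie 718 bp apart, the tandem starts 1814 and 1999 bp and the convergent starts 2853 bp.

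The shared signal was far higher at divergent pairs than at the other long regions. Divided by region width, the median of the 6-library mean was 83.9 signal units per kb at divergent pairs (middle 50% of regions 28.4 to 125). The convergent median was 16.9 (0.148 to 57.2) and the tandem median 2.24 (0.0511 to 52.6). Library medians did not overlap between orientations, at 75.0 to 91.1 for divergent, 13.1 to 19.7 for convergent and 1.21 to 4.71 for tandem regions. The order was the same in every library, and no test was made because regions are not replicates. Not every long region had a signal above the minimum: 494 of 2158 (22.9%) stood at it in all 6 libraries, so for these the name H3K4me3 region is not borne out. They included 364 tandem regions (31.3%), 55 convergent (20.4%) and 72 divergent regions (10.1%). Among the 2000 bp regions the median was 17.4 signal units per kb, and 21.4% stood at the minimum throughout.

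The signal also differed with how many of the edge genes had RNA. A gene is called expressed here when it reached 1 TPM in at least 3 of the 9 RNA libraries. Both genes were expressed in 444 divergent (62.5%), 324 tandem (27.8%) and 84 convergent pairs (31.2%), and neither in 94 divergent (13.2%), 505 tandem (43.4%) and 81 convergent pairs (30.1%). With neither gene expressed, the median signal per kb was near the minimum in each orientation, at 0.0594, 0.0523 and 0.108 for divergent, tandem and convergent regions. With 1 expressed gene it was 48.1, 25.9 and 24.6. With both expressed it was 107 at divergent (82.4 to 138), 64.8 at tandem (26.4 to 94.6) and 56.1 at convergent regions (23.5 to 78.7). In that last class the library medians of divergent regions, 96.9 to 118, lay above those of tandem (56.2 to 69.3) and convergent regions (47.4 to 62.0), while the tandem and convergent ranges overlapped. Single-gene regions of 2000 bp had a median of 74.9 where the gene was expressed and 0.120 where it was not.

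**Figure D2:**
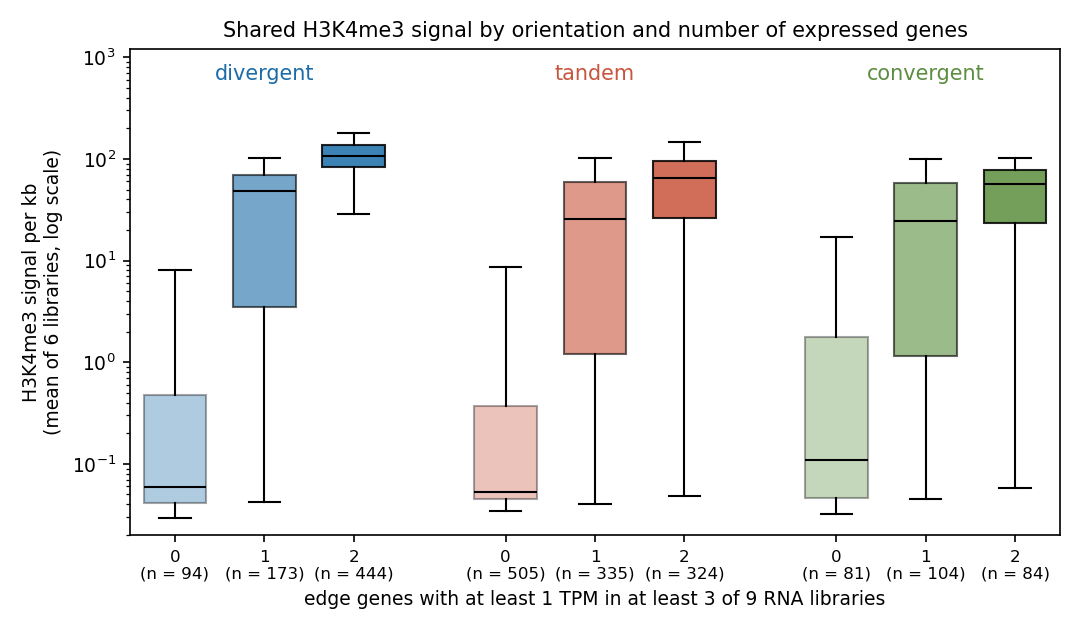
H3K4me3 signal per kb (mean of 6 libraries, log scale) of the 2144 two-gene long regions, by orientation and by the number of expressed edge genes (1 TPM or more in 3 of 9 RNA libraries). Boxes span the middle 50% of regions with the median as a line, and whiskers the 5th to 95th percentile. Medians rise from near 0.05 or 0.11 with no expressed gene to 107, 64.8 and 56.1 with both expressed.

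At divergent pairs the signal per kb also differed with the distance between the starts. It was highest where the starts were 0 to 250 bp apart, with a median of 104 (n = 102), and 250 to 500 bp apart, with 102.5 (n = 156). It was 76.7 at 500 to 750 bp (n = 166), 70.7 at 750 to 1000 bp (n = 192) and 50.9 beyond 1000 bp (n = 58). At pairs whose loci overlapped at the starts the median was 63.3 (n = 37). Among pairs with both genes expressed the range was narrower, from 127 at 0 to 250 bp to 95.5 beyond 1000 bp, and 92.9 at overlapping starts. A longer distance also adds intergenic sequence to the width by which the signal is divided.

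In tandem pairs with 1 expressed gene the signal differed with the position of that gene. Where only the downstream gene of the pair, the second in the direction of reading, was expressed, the median signal per kb was 38.4 (4.74 to 67.95, n = 230). Where only the upstream gene was expressed it was 4.41 (0.0617 to 36.1, n = 105). Library medians did not overlap, at 30.7 to 42.2 against 1.78 to 6.60. The expressed genes themselves differed between these sets, since lone downstream genes were longer (median locus length 2188.5 against 761 bp) and had more RNA (median 16.6 against 8.61 TPM). With at least 5 TPM required of the expressed gene the medians were 52.4 (n = 173) and 15.1 (n = 69), while lengths still differed, at 2584 against 778 bp. The parts of length and RNA level in this difference were not tested.

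The regions with the most signal per kb had no called change between dates (adjusted p 0.146 or higher, limma). The highest tandem region holds PRUPE_ppa001654mg and PRUPE_ppa011514mg (scaffold 2, 23787362 to 23791095, both minus). Its signal was 1161 and 1209 in the October libraries, 1296 and 1391 in December and 1323 and 1099 in January, a mean of 334 per kb. The highest divergent region, of PRUPE_ppa026034mg and PRUPE_ppa013185mg (scaffold 1, 32774196 to 32777670), had 815 and 811, 869 and 888, and 908 and 745 on the same dates, or 242 per kb. In the highest convergent region, of PRUPE_ppa013259mg and PRUPE_ppa013046mg (scaffold 8, 21560317 to 21563853), the values were 638 and 606, 759 and 748, and 768 and 665, or 197 per kb. All 6 genes had RNA in every library, from 18.6 TPM in 1 January library of PRUPE_ppa001654mg to 263 TPM in 1 of PRUPE_ppa013259mg. The longest region, a divergent one of 7986 bp with 3 further genes inside (PRUPE_ppa014089mg and PRUPE_ppa012485mg, scaffold 3, 16645744 to 16653730), had a signal of 437 to 558 over the 6 libraries.

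The edge genes of long regions differed in RNA level by orientation. Of the divergent genes 74.6% were expressed, with a median of 15.8 TPM over all 1422 of them. The shares were 50.6% of the convergent genes (median 0.882 TPM) and 42.2% of the tandem genes (median 0.125 TPM), against 65.0% of all PRUPE genes (median 6.38 TPM). A shared region did not mean a shared level. Where both genes were expressed, the gene with more RNA had a median of 3.22 times the TPM of its partner in divergent, 2.77 times in tandem and 6.63 times in convergent pairs. The ratio reached 10 in 84 divergent (18.9%), 73 tandem (22.5%) and 33 convergent pairs (39.3%). Across pairs with both genes expressed, Spearman's rho between the levels of the left and right gene was 0.14 for divergent (n = 444), 0.19 for tandem (n = 324) and -0.26 for convergent pairs (n = 84). Both levels of a pair come from the same libraries, so these coefficients are descriptions.

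Over the winter the RNA of these genes changed about as often as that of all genes. From October to December 1329 of the 2316 tested genes changed (711 higher, 618 lower, limma at an adjusted p under 0.05), or 57.4% against 60.5% of all 18384 genes tested, of which 28.9% were higher and 31.6% lower. Over the second interval, December to January, 728 changed (411 higher, 317 lower), or 31.4% against 32.9% of all genes (18.5% higher, 14.5% lower). January differed from October in 1338 (767 higher, 571 lower), or 57.8% against 61.1% (31.7% higher, 29.4% lower). The 1972 other edge genes did not pass the filter of 1 TPM in 3 libraries and were not tested, and a gene can pass it through 1 date alone. Directions differed by orientation. Among called divergent genes 413 were higher and 224 lower in December than in October, so 64.8% rose, against 47.8% of all called genes and 48.2% in divergent pairs whose genes have a 2000 bp region each. In January 432 were higher and 179 lower than in October (70.7%). Among tandem genes 232 rose and 317 fell from October to December (42.3% higher), and among convergent genes 66 rose and 77 fell (46.2%). Under quantile normalization the divergent share was 70.2%, the tandem share 50.3% and the convergent share 55.0%, against 54.9% of all called genes. The excess of falls over rises in tandem and convergent genes thus depends on the scaling. Under both settings the tandem share lay below that of all called genes, and the convergent share lay near it. From December to January 208 divergent genes rose and 152 fell (57.8% higher), near the 56.1% of all called genes. With library medians aligned it was 49.7%, against 48.7% of all called genes.

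Neighbours that both changed moved the same way somewhat more often than in opposite ways in most of the sets. In the October to December interval both genes were called in 160 of 444 tested divergent pairs, and in 95 (59.4%) they went the same way, 77 with both higher and 18 with both lower. In 65 pairs they went opposite ways. Of 117 tandem pairs with both genes called 74 (63.2%) went the same way, 24 up and 50 down, and of 24 convergent pairs 15 (62.5%), 8 up and 7 down. Pairs of consecutive genes with a region each gave 49.8% of 928 divergent, 60.3% of 2295 tandem and 52.3% of 930 convergent pairs. In the later interval, December to January, the shares in long regions were 55.1% of 49, 62.5% of 32 and 62.5% of 8, and from October to January 60.8% of 148, 64.0% of 136 and 48.3% of 29. Consecutive pairs with a region each gave 54.2%, 63.1% and 60.9% from December to January. From October to January they gave 55.7%, 59.8% and 51.7%. The divergent excess came with the excess of rises just described, and across all tested divergent pairs the log2 changes of both genes had almost no rank correlation (rho = 0.03, n = 444), against 0.23 in tandem (n = 324) and 0.19 in convergent pairs (n = 84). Both genes were measured in the same libraries, whose errors they share. The convergent share moved most with single libraries, to 50.0% without December replicate 2 and, from December to January, to 40.0%. The divergent share of 55.1% from December to January was 47.6% without December replicate 1, 44.9% with library medians aligned, 49.0% under quantile normalization and 48.0% without a filter. Without overlapping and same-name pairs the tandem share was 58.8% from October to December, 55.6% from December to January and 57.8% from October to January, each below that of consecutive pairs with a region each (60.3%, 63.1% and 59.8%).

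**Figure D3:**
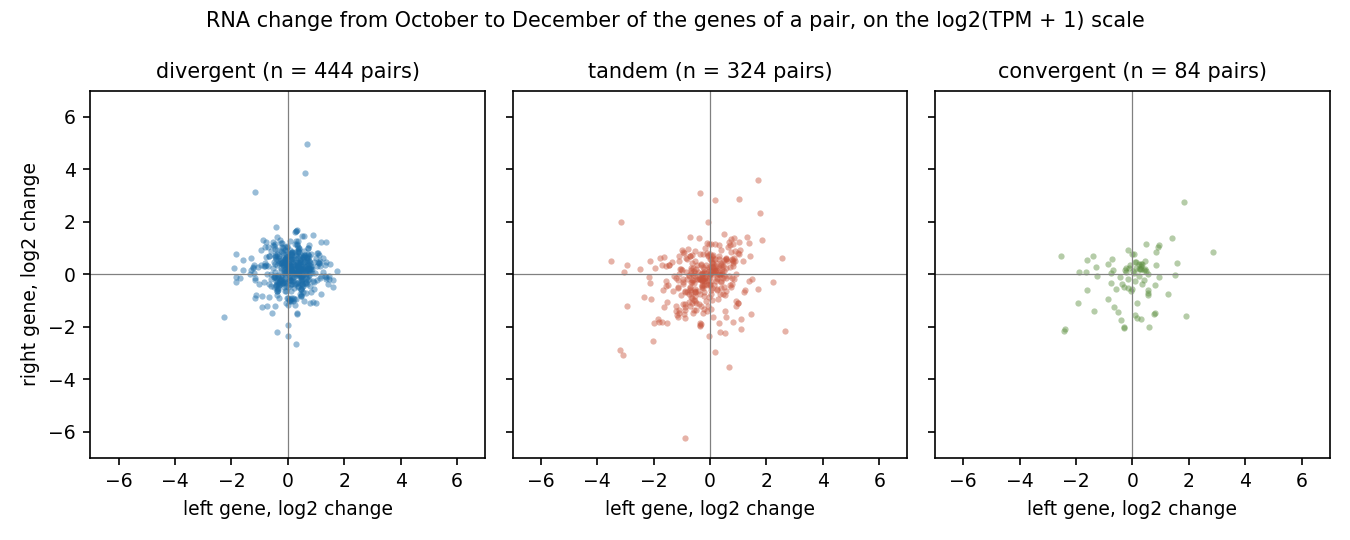
Log2(TPM + 1) change from October to December of the left gene (x axis) and right gene (y axis) of each tested pair, by orientation. Points are pairs, 444 divergent, 324 tandem and 84 convergent, and those to the upper right and lower left of 0 moved the same way. The divergent cloud lies toward the upper right and shows no slope (rho = 0.03), and the tandem cloud is elongated (rho = 0.23).

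The difference between the changes of both genes was tested directly as the change of right minus left log2(TPM + 1). It was called in 403 of 852 pairs from October to December (47.3% against 56.3% of all 13795 neighbour pairs tested), in 219 from December to January (25.7% against 31.2%) and in 390 from October to January (45.8% against 57.3%). In the first interval the neighbours differed in 248 of 444 divergent pairs (55.9%), 126 of 324 tandem pairs (38.9%) and 29 of 84 convergent pairs (34.5%). Consecutive pairs with a region each differed in 59.9%, 55.5% and 59.6%. The sizes lay closer than these shares, with a median absolute difference of 0.55, 0.57 and 0.60 in long regions against 0.66, 0.62 and 0.67. The tandem pairs of long regions include same-name pairs, whose values are uncertain. The part of RNA level in the shares called was not tested. Of the 403 pairs, 117 had both genes called in opposite directions, 60 in the same direction with different sizes, and 217 had 1 gene called.

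Pairs with large changes of both genes are described next, chosen by the largest smaller change among pairs at 5 TPM or more. By that measure the first among opposite changes was a tandem pair, PRUPE_ppa013533mg and PRUPE_ppa021377mg (scaffold 2, region 24941435 to 24945434, both minus, loci 24941805 to 24942935 and 24944313 to 24944934, 1 further gene). The downstream PRUPE_ppa013533mg had 16.1, 16.9 and 14.5 TPM in October, 103, 104 and 108 in December and 101, 109 and 82.0 in January. The upstream PRUPE_ppa021377mg had 38.3, 36.9 and 31.3 TPM in October, 7.45, 8.67 and 5.32 in December and 13.1, 11.8 and 14.4 in January. The order of the neighbours thus turned between October and December, with no overlap between libraries of the dates for either gene. Their log2 changes were 2.66 (SE 0.10) and -2.18 (SE 0.16), and the difference, right minus left, was -4.84 (SE 0.21, adjusted p 1.53e-06, limma). The shared H3K4me3 signal was 241 and 266 in October, 343 and 345 in December and 359 and 370.4 in January. Its log2 change of 0.44 to December was called (SE 0.12, adjusted p 0.0406) and was 0.29 beyond the median of all regions. For this and all other single regions the p tests the change before the median of all regions is taken off. The call was lost without any 1 of the October and December libraries (adjusted p 0.164 to 0.480) and with edgeR (0.065). The difference was larger still in another tandem pair, PRUPE_ppa014332mg and PRUPE_ppa014030mg (scaffold 6, region 27339026 to 27342144, both minus, 1 further gene), at 5.14 (SE 0.38, adjusted p 1.17e-05). The downstream PRUPE_ppa014332mg fell from 37.1, 31.0 and 30.8 to 2.51, 2.12 and 3.95 TPM, and the upstream PRUPE_ppa014030mg rose from 41.5, 51.5 and 49.0 to 169, 248 and 159 TPM. The mark there went from 102.5 and 102 to 62.2 and 60.4, a log2 change of -0.73 (SE 0.20, adjusted p 0.0403), or -0.88 beyond the median, and in January it was not called against October (adjusted p 0.0543). How that December call fares under the alternatives is not given here.

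Opposite changes also occurred at starts that nearly touch. PRUPE_ppa023408mg (minus) and PRUPE_ppa009589mg (plus) are divergent with starts 99 bp apart (scaffold 3, region 16448596 to 16451696). PRUPE_ppa023408mg had 9.96, 9.26 and 7.34 TPM in October and 22.01, 18.9 and 15.8 in December, a log2 change of 1.01 (SE 0.16, adjusted p 0.000282). PRUPE_ppa009589mg had 238, 222 and 221 TPM in October and 107, 106 and 106 in December, a change of -1.08 (SE 0.05, adjusted p 1.18e-07). The shared mark, at 266 and 306 in October and 325 and 348 in December, had an uncalled log2 change of 0.24 (SE 0.13, adjusted p 0.241), or 0.09 beyond the median of all regions. In the convergent pair PRUPE_ppa008609mg and PRUPE_ppa018085mg (scaffold 1, region 22401152 to 22404800), the first rose from 94.4, 93.9 and 91.1 to 360.5, 366 and 317 TPM. The second, at 7.38, 4.93 and 3.52 TPM in October and 1.73, 1.94 and 0 in December, fell by 1.60 (SE 0.47, adjusted p 0.0128), a call lost under quantile normalization (0.0524) and without a filter (0.064).

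Other pairs moved together while the mark did so too. The tandem genes PRUPE_ppa014049mg and PRUPE_ppa005580mg (scaffold 1, region 27167037 to 27170851, both plus) both peaked in December. PRUPE_ppa014049mg had 10.5, 11.6 and 8.87 TPM in October, 47.8, 33.3 and 33.0 in December and 19.6, 21.6 and 13.1 in January. PRUPE_ppa005580mg had 26.4, 31.2 and 28.1 TPM, then 161.5, 145 and 133, then 67.2, 55.0 and 40.4. No December library overlapped an October or January one for either gene. The mark was 356 and 343 in October, 651 and 741 in December and 688 and 574 in January, so it rose from October to December by a log2 change of 0.99 (SE 0.13, adjusted p 0.000339), or 0.84 beyond the median of all regions. From December to January both genes fell while the mark had no called change (adjusted p 0.718), and in January the mark was still higher than in October by 0.84 (SE 0.13, adjusted p 0.000298), or 0.80 beyond the median. In the convergent pair PRUPE_ppa014687mg and PRUPE_ppa011229mg (scaffold 6, region 28579115 to 28582341) both genes fell, from 17.6, 21.6 and 21.2 to 1.74, 4.17 and 3.39 TPM and from 341, 334 and 294 to 75.8, 66.1 and 69.9 TPM. The mark there went from 233 and 232 to 151 and 156, a log2 change of -0.60 (SE 0.14, adjusted p 0.0220) or -0.75 beyond the median, not called without any 1 of these 4 libraries (adjusted p 0.128 to 0.254). The largest joint fall in tandem pairs, at PRUPE_ppa012702mg and PRUPE_ppa012692mg (scaffold 6, region 670043 to 675623, 2 further genes), was -3.11 (SE 0.20) and -3.09 (SE 0.23), with a log2 change of the mark of -0.75 that missed the threshold (SE 0.23, adjusted p 0.0559) and lay -0.89 beyond the median. With library medians aligned that fall was called (-0.89, adjusted p 0.0087), as it was with edgeR (0.0114), under quantile normalization (0.0268) and with only both dates fitted (0.0186). It was not called under every alternative, and whether it was called also depended on which libraries were fitted.

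From October to December, joint RNA changes occurred without a called change of the mark as well. In the convergent pair PRUPE_ppa012174mg and PRUPE_ppa013354mg (scaffold 1, region 29261385 to 29264406) PRUPE_ppa012174mg had 244.5, 246 and 199 TPM in October, 762, 892 and 793 in December and 1402, 1249.9 and 1497 in January. PRUPE_ppa013354mg had 27.9, 23.6 and 25.3 TPM, then 175, 205 and 161, then 219, 189.8 and 201. Both rose from October to December, by 1.83 (SE 0.10) and 2.77 (SE 0.10, adjusted p 1.8e-08). The mark was 216 and 208 in October, 232.5 and 239 in December and 309 and 301.5 in January. Its log2 change to December was 0.15 (SE 0.13, adjusted p 0.427), equal to the median of all regions, and in January it was higher than in October by 0.52 (SE 0.13, adjusted p 0.0095), or 0.48 beyond the median. Every later library lay above the October ones for both genes. In the divergent pair PRUPE_ppa015604mg and PRUPE_ppa025515mg (scaffold 7, region 17763237 to 17766807) both genes rose, by 1.35 (SE 0.20) and 1.22 (SE 0.14), with the mark at 398 and 385 in October and 408 and 449 in December. In PRUPE_ppa006559mg and PRUPE_ppa001667mg, divergent on scaffold 6 (region 26972991 to 26976774), both fell, by 1.17 (SE 0.17) and 0.90 (SE 0.16), with the mark at 172 and 207.5 in October and 252.5 and 240.0 in December, a log2 change of 0.38 that was not called (SE 0.14, adjusted p 0.105). Beyond the median of all regions it was 0.23. That change, opposite in sign to the RNA of both genes, was called with only both dates fitted (adjusted p 0.0227, limma). Under that setting 446 long regions were called higher, against 51 in the main fit. Whether the change was called depended on which libraries were fitted.

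Fewer pair changes were called between December and January. The divergent genes PRUPE_ppa007866mg and PRUPE_ppa022644mg (scaffold 7, region 18964958 to 18968756) both rose, from 3.26, 4.47 and 3.39 to 6.67, 8.82 and 8.11 TPM and from 16.2, 18.9 and 18.6 to 52.5, 48.6 and 48.7 TPM. In the convergent pair PRUPE_ppa022089mg and PRUPE_ppa011214mg (scaffold 10, region 417929 to 421854) the left gene fell from 59.5, 55.5 and 57.6 to 24.1, 26.6 and 25.6 TPM and the right gene rose from 47.4, 41.8 and 46.6 to 63.6, 63.8 and 57.9 TPM. The difference of 1.59 between these log2 changes was called (SE 0.13, adjusted p 0.000113, limma). At the divergent pair PRUPE_ppa013054mg and PRUPE_ppa018914mg (scaffold 5, region 13293898 to 13297734) the levels crossed over the winter. PRUPE_ppa013054mg had 16.2, 16.1 and 10.9 TPM in October, 8.41, 7.72 and 8.99 in December and 2.33, 2.99 and 1.16 in January. PRUPE_ppa018914mg had 3.41, 3.30 and 4.63 TPM, then 7.26, 10.9 and 8.12, then 23.7, 19.1 and 23.9. No date overlapped another for either gene, and the difference between their December to January changes was 2.87 (SE 0.35, adjusted p 0.000686). Their region had a signal of only 5.16 to 16.3 in the 6 libraries and was not tested. Opposite changes were also found where no shared signal stood above the minimum. PRUPE_ppa017988mg and PRUPE_ppa013141mg, tandem on scaffold 4 (region 10573267 to 10578222, 1 further gene), stand in a region at the minimum in all 6 H3K4me3 libraries. The first rose from 9.79, 9.68 and 9.07 to 20.2, 20.3 and 17.2 TPM and the second fell from 14.7, 16.6 and 11.7 to 5.51, 7.23 and 4.94 TPM, a difference of -2.10 (SE 0.16, adjusted p 0.000103). The tandem pairs with the largest joint changes in this interval were both same-name pairs, PRUPE_ppa013970m1g with m2g (both higher in January) and PRUPE_ppa007707m1g with m2g (both lower), also at the minimum, and their values are uncertain for that reason.

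Changes were called less often for the shared mark than for the RNA, with 2 against 3 libraries a date. In simulated data the tests recovered 46% of changes of 1 log2 unit for the mark and 72% for RNA. The shares of mark and RNA called are therefore not comparable. Of the 1353 long regions tested (2 or more libraries with a signal of 10 or above), 84 changed from October to December (51 higher, 33 lower). That is 6.21% against 7.05% of all 15360 regions tested (4.5% higher, 2.55% lower). January differed from December in 19 (6 higher, 13 lower), or 1.40% against 1.73% of all regions (0.436% higher, 1.3% lower). Over the whole span, October to January, 175 changed (58 higher, 117 lower), or 12.9% against 15.2% (5.68% higher, 9.49% lower). By orientation the October to January counts were 42 of 581 divergent (21 higher, 21 lower), 101 of 596 tandem (28 higher, 73 lower) and 31 of 169 convergent regions (9 higher, 22 lower). For October to December they were 29 divergent (25 higher, 4 lower), 47 tandem (22 and 25) and 8 convergent (4 and 4). These splits depended on the scaling. With library medians aligned, the October to December split of all long regions was 149 higher and 149 lower, with edgeR 130 and 139, under quantile normalization 164 and 210, and with only both dates fitted 446 and 85. The October to January split was 235 and 234 with medians aligned, 215 and 203 with edgeR and 174 and 317 under quantile normalization. For divergent regions it was then 130 and 58, 122 and 46, and 74 and 111, for tandem regions 77 and 140, 69 and 125, and 72 and 164, and for convergent regions 27 and 35, 23 and 31, and 27 and 41. The splits also turned with single H3K4me3 libraries, so no direction is given for any orientation. Without January replicate 3 the October to January split was 257 higher and 17 lower in divergent, 128 and 71 in tandem and 34 and 22 in convergent regions. Without December replicate 3 the October to December split was 6 and 26 over all long regions, 1 and 3 in divergent and 3 and 20 in tandem regions, and without October replicate 3 it was 21 and 3 in tandem regions. Total counts moved as well. The October to December count of 84 was 13 without October replicate 2, 51 without October replicate 3, 31 and 32 without December replicate 2 or 3, and 539 and 525 without January replicate 2 or 3. The December to January count of 19 was 41 and 38 without October replicate 2 or 3, 34 without December replicate 2, 445 without January replicate 2 and 5 without January replicate 3. The October to January count of 175 was 107 without October replicate 3, 278 without January replicate 2 and 532 without January replicate 3.

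The largest changes of the mark are given for regions with exactly 2 genes and a signal of at least 177.3 on the higher date, the median over tested regions. At the convergent pair PRUPE_ppa012188mg and PRUPE_ppa008043mg (scaffold 1, region 3576322 to 3580174, loci 3576821 to 3578191 and 3578458 to 3579674) the signal was 108 and 119.5 in October, 427 and 389 in December and 533.5 and 486 in January. PRUPE_ppa012188mg had 54.7, 60.1 and 54.6 TPM in October, 419.6, 446 and 392 in December and 359, 357 and 416 in January. PRUPE_ppa008043mg rose less, from 26.5, 26.2 and 22.6 TPM to 44.97, 46.9 and 45.2, and had 51.4, 43.3 and 37.0 in January. For the mark and for both genes, every later library lay above every October one. To December the mark had a log2 change of 1.84 (SE 0.13, adjusted p 1.37e-06), or 1.69 beyond the median of all regions. The RNA changed by 2.87 (SE 0.08) and 0.84 (SE 0.12), and the genes differed in their change (right minus left -2.03, SE 0.17, adjusted p 2.37e-05).

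The largest rise at a divergent pair was at PRUPE_ppa013467mg and PRUPE_ppa010429mg (scaffold 1, region 36195480 to 36198274), whose loci overlap by 207 bp at their starts. The signal was 276 and 272 in October, 606 and 638 in December and 654 and 593 in January, a log2 change of 1.18 from October to December (SE 0.12, adjusted p 3.29e-05), or 1.03 beyond the median. PRUPE_ppa010429mg went from 9.31, 8.57 and 9.05 TPM to 76.0, 83.9 and 83.2 and had 74.0, 71.3 and 66.7 in January (log2 change to December 3.04, SE 0.08, adjusted p 3.33e-09). Its neighbour PRUPE_ppa013467mg was at 0 to 1.84 TPM in the 9 libraries and was not tested. Here 1 gene accounted for nearly all the RNA of the pair.

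The largest fall at a divergent pair went with the gene that had less RNA. At PRUPE_ppa008785mg and PRUPE_ppa002187mg (scaffold 2, region 25328373 to 25332092, loci 25326741 to 25329873 and 25330591 to 25333550) the signal was 568 and 598 in October, 267 and 248 in December and 250.3 and 207 in January. PRUPE_ppa002187mg had 4.43, 5.63 and 4.89 TPM in October, 0.186, 0 and 0.334 in December and 0.780, 1.43 and 1.96 in January. PRUPE_ppa008785mg had 26.4, 26.2 and 24.2 TPM, then 28.3, 20.3 and 30.6, then 20.9, 28.9 and 25.5. The October libraries stood apart for the mark and for PRUPE_ppa002187mg and overlapped the others for PRUPE_ppa008785mg. To December the mark had a log2 change of -1.17 (SE 0.13, adjusted p 7.35e-05), or -1.32 beyond the median. PRUPE_ppa002187mg changed by -2.36 (SE 0.23, adjusted p 1.15e-05) and PRUPE_ppa008785mg by 0.02 (SE 0.16, adjusted p 0.911). The genes differed in their change by -2.38 (SE 0.16, adjusted p 8.39e-06).

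In tandem pairs the largest fall to December and the rise ranked first lay at pairs with 1 expressed gene, the rise being level with that at PRUPE_ppa014049mg and PRUPE_ppa005580mg (0.99 each). At PRUPE_ppa008337mg and PRUPE_ppb011842mg (scaffold 1, region 25878399 to 25882380, both minus) the signal was 257 and 250.1 in October, 132 and 126 in December and 95.1 and 94.3 in January, lower on each later date in both libraries. The downstream PRUPE_ppa008337mg went from 96.3, 93.0 and 111.5 TPM to 11.6, 11.1 and 7.68 and then 4.96, 6.78 and 6.66, and the upstream gene was listed at 0 in all 9 libraries. The log2 change of the mark was -0.97 to December (SE 0.15, adjusted p 0.0015), or -1.12 beyond the median, and -1.41 from October to January (SE 0.15, adjusted p 1.07e-05), or -1.46 beyond it. At PRUPE_ppa004110mg and PRUPE_ppa020702mg (scaffold 8, region 18691291 to 18694887, both minus) the signal was 86.0 and 142.5 in October, 212 and 230.2 in December and 163 and 147 in January. PRUPE_ppa004110mg, downstream, rose from 49.3, 50.6 and 46.3 to 213, 194 and 219 TPM, and PRUPE_ppa020702mg was listed at 0 throughout. The mark had a log2 change of 0.99 to December (SE 0.19, adjusted p 0.00686), or 0.84 beyond the median. Without October replicate 2 it was 0.63 and not called (adjusted p 0.187), and from October to January it was 0.48 and not called (adjusted p 0.109). The largest fall at a convergent pair was at PRUPE_ppa021726mg and PRUPE_ppa008425mg (scaffold 7, region 19757038 to 19760565), with a signal of 186 and 179 in October, 103 and 119 in December and 75.8 and 65.7 in January. PRUPE_ppa021726mg was listed at 0 throughout, and PRUPE_ppa008425mg fell from 33.2, 28.6 and 23.7 to 11.4, 13.1 and 11.3 TPM. The log2 change of the mark to December, -0.72 (SE 0.17, adjusted p 0.0221) or -0.86 beyond the median, was not called without any 1 of the October and December libraries (adjusted p 0.0506 to 0.236), and that from October to January was -1.36 (SE 0.17, adjusted p 6.40e-05).

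**Figure D4:**
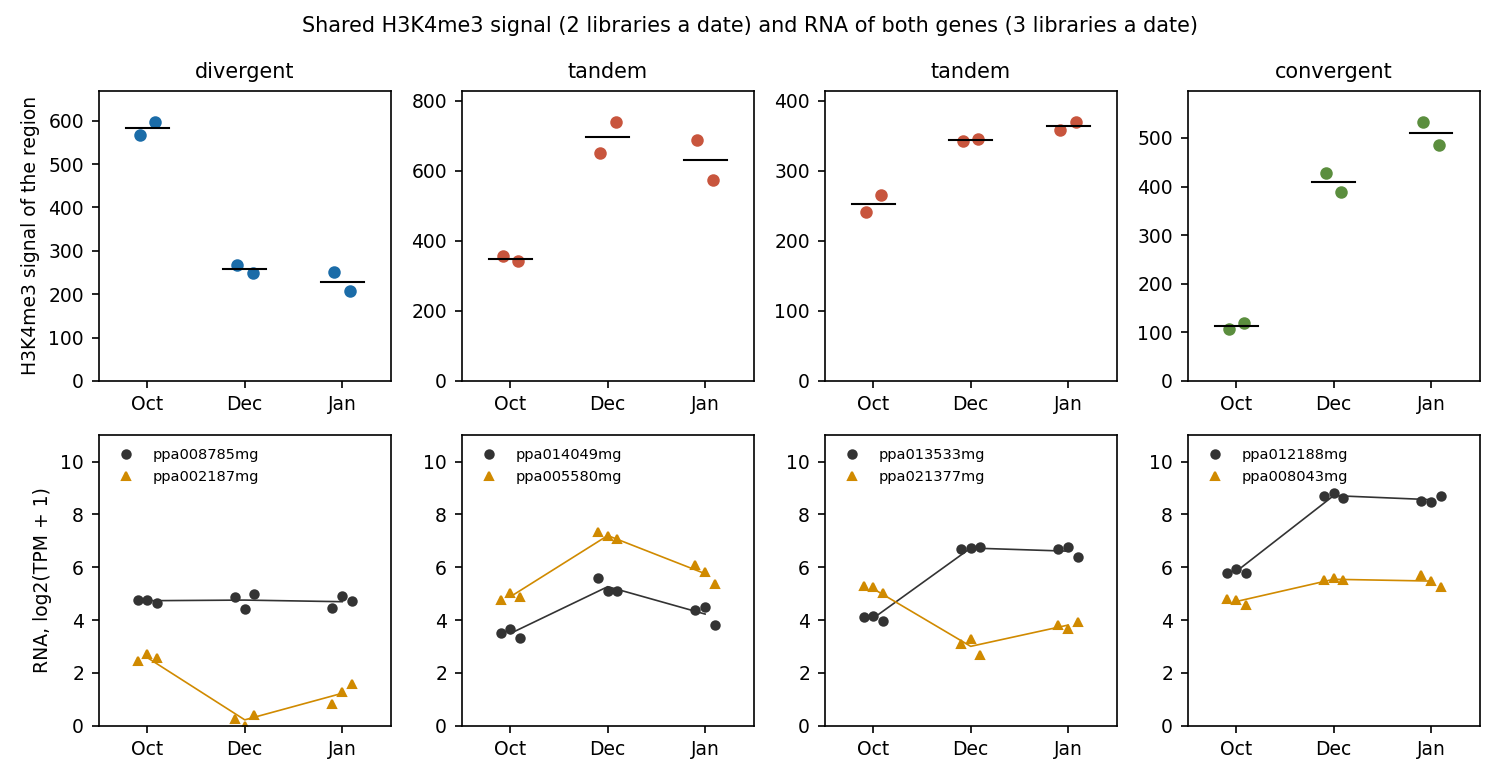
H3K4me3 signal of 4 regions (upper row, points are the 2 libraries of a date, lines their mean) and log2(TPM + 1) of both edge genes (lower row, points are the 3 libraries of a date, lines join the means). In the divergent pair the mark and PRUPE_ppa002187mg are lower after October and PRUPE_ppa008785mg is level, in the first tandem and the convergent pair the mark and both genes are higher in December, and in the second tandem pair the genes move in opposite directions.

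Between December and January, the interval in which the label changes to non-dormant, only 1 convergent region had a called fall. Both of its genes fell. PRUPE_ppa002314mg and PRUPE_ppa014314mg (scaffold 4, region 4005704 to 4009641) overlap at their ends, so their RNA values are uncertain. They had 47.1, 47.5 and 35.9 TPM and 33.0, 28.5 and 23.3 TPM in December, and 4.12, 3.31 and 4.38 TPM and 2.79, 0.848 and 2.59 TPM in January. The signal was 402.5 and 391.5 in October, 306 and 287 in December and 204 and 164 in January, a log2 change of -0.69 from December to January (SE 0.13, adjusted p 0.0135, and 0.07 without December replicate 2), or -0.58 beyond the median. At the divergent PRUPE_ppa016669mg and PRUPE_ppa006597mg (scaffold 8, region 21644054 to 21647785) the mark went from 167 and 227 to 104 and 107, and both genes fell, by 0.94 (SE 0.17) and 0.84 (SE 0.19). That log2 change of the mark, -0.88 (SE 0.16, adjusted p 0.0087) or -0.77 beyond the median, was not called without December replicate 3 (0.237) or January replicate 3 (0.0655). At the divergent PRUPE_ppa013527mg and PRUPE_ppa006997mg (scaffold 7, region 20132513 to 20136135) the mark rose from 265 and 244 to 431 and 396, by a log2 change of 0.70 (SE 0.12, adjusted p 0.0072, and 0.131 without December replicate 3), or 0.81 beyond the median. PRUPE_ppa006997mg rose from 72.5, 61.7 and 55.1 to 149, 166 and 137.5 TPM, and PRUPE_ppa013527mg, at 22.2, 19.2 and 23.6 and then 18.1, 15.8 and 17.9 TPM, changed by -0.31 (SE 0.11, adjusted p 0.0496), a call that was lost under 10 of its alternatives (0.0615 to 0.162).

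Where the mark changed, at least 1 of both genes usually changed in the same direction. This held for 71 of the 84 regions called from October to December (84.5%), 11 of 19 from December to January (57.9%) and 133 of 174 from October to January (76.4%). Whatever the mark, 28.9% of all genes tested were called higher and 31.6% lower over the first interval. Over the others it was 18.5% and 14.5%, and 31.7% and 29.4%. With 2 genes a region often has 1 called in a given direction, and that share over all regions is not given here. At single-gene regions the gene went the same way as the mark in 79.6%, 54.1% and 73.2%. Mostly it was 1 gene and not both: of the 174 regions called from October to January, both genes went with the mark in 41, only 1 was called and went with it in 84, and in 8 the partner went against it. In 4 the only called gene or genes went against the mark and in 37 no gene was called. A region has more chances to match than a single gene, so the shares of long and single-gene regions are not compared further. The October to December share was 72.5% to 87.5% without single H3K4me3 libraries. The December to January share was 33.6% without January replicate 2 and 80.0% without January replicate 3.

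Across regions with both genes tested, the change of the mark followed the mean RNA change of both genes more closely than that of either gene in divergent pairs. Between October and December rho was 0.52 with the mean, 0.37 with the gene of the higher level and 0.36 with the other (n = 432). In tandem pairs the gene with the higher level alone (0.50) came close to the mean (0.51), with 0.31 for the other (n = 285). In convergent pairs the values were 0.47, 0.29 and 0.44 (n = 75). Single-gene regions had 0.58 (n = 12773). In tandem pairs rho was higher with the downstream gene than with the upstream gene in each interval, 0.47 against 0.35 from October to December, 0.30 against 0.14 from December to January and 0.46 against 0.34 from October to January. These coefficients describe regions that share the same 6 and 9 libraries, and their differences were not tested. Among the 101 tandem regions whose mark changed from October to January the downstream gene went with the mark in 58 of 81 tested (against it in 2) and the upstream gene in 37 of 66 tested (against it in 5).

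**Figure D5:**
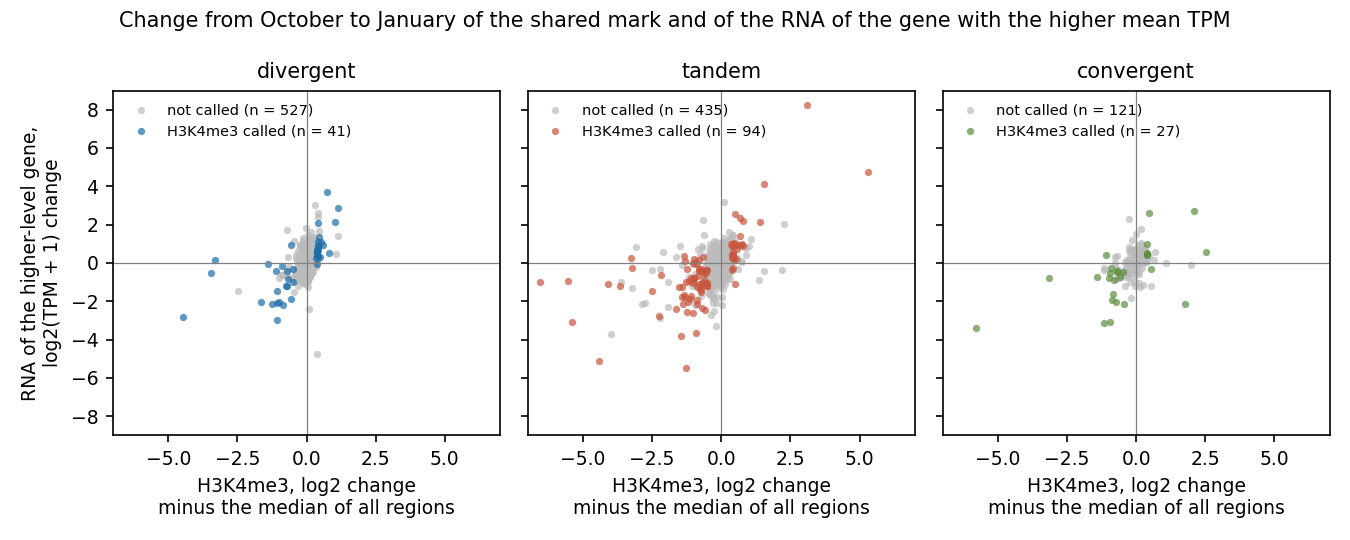
Change from October to January of the shared H3K4me3 signal (x axis, log2 change minus the median of all regions) and of the RNA of the edge gene with the higher mean TPM (y axis, log2(TPM + 1)), by orientation. Coloured points are regions whose mark was called (41 divergent, 94 tandem and 27 convergent with that gene tested) and grey points the rest. Most coloured points lie to the upper right or lower left of 0, and the tandem panel holds the widest spread.

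A few long regions went from a signal of at least 20 to the minimum. Taking that signal in both libraries of 1 date and the minimum in both of another, 6 long regions fell to the minimum from October to January. They were among 54 of all regions. The reverse was seen in 0 long regions, among 10 of all regions. Between adjacent dates there were 0 of either kind among long regions. The limit of 20 was chosen with the values known. At PRUPE_ppa1027146mg and PRUPE_ppa013300mg, convergent on scaffold 6 (8899037 to 8904473), the signal was 40.6 and 90.5 in October, at the minimum in 1 December library and 24.9 in the other, and at the minimum in January. PRUPE_ppa013300mg had 442, 437 and 473 TPM in October, 93.5, 89.7 and 117 in December and 33.1, 50.6 and 43.6 in January, and so kept RNA where the mark was at the minimum. At PRUPE_ppa022774mg and PRUPE_ppa019092mg, tandem on scaffold 4 (2799141 to 2802600), the signal of 40.8 and 51.3 in October was 0.151 and 1.59 in December, and the RNA of PRUPE_ppa019092mg fell from 22.3, 21.0 and 25.8 to 1.55, 1.31 and 2.14 TPM. At PRUPE_ppa017005mg and PRUPE_ppa022668mg, divergent on scaffold 6 (26385761 to 26389077), the mark was kept until December (24.2 and 23.7, then 14.5 and 15.2), and the RNA of PRUPE_ppa022668mg was 21.1, 19.3 and 18.7, then 14.5, 12.4 and 10.0, then 3.38, 1.51 and 1.28 TPM. The other 3 lay at PRUPE_ppa006817mg and PRUPE_ppa026400mg (tandem, scaffold 1), PRUPE_ppa016129mg and PRUPE_ppa023805mg (convergent, scaffold 6) and PRUPE_ppa016883mg and PRUPE_ppa005386mg (tandem, scaffold 8), with a signal of 25.8 to 128 in October. In December replicates 2 and 3 these had, in the same order, 3.47 and 46.4, 0.302 and 13.8, and 0.151 and 46.6. Libraries of 1 date thus differed widely as well. The regions of PRUPE_ppa013300mg, PRUPE_ppa026400mg and PRUPE_ppa023805mg are over 4000 bp wide, so each also overlaps a further gene. January replicate 3 had the fewest recovered reads of all libraries. January replicate 2, with 23871977, had more than either October library (14898960 and 18279008). Both January libraries stood at the minimum in these regions, and the part of depth in these falls was not tested. Far more regions stood at the minimum of 1 step than at 2 steps (6632 to 8398 against 153 to 181 per library). Whether the minimum stands for absence of the mark was not tested.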

How the data were processed

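RNA-seq (9 libraries) and H3K4me3 ChIP-seq (6 libraries) tables of sweet cherry flower buds were used as deposited. The H3K4me3 signal, 1 value per region and library, was scaled by the authors, and its column headers read TMM, short for trimmed mean of M values. Per the submitters' processing notes, TopHat and Picard are named for RNA, and Bowtie2, DiffBind, FastQC, Picard and Trimmomatic for ChIP-seq, all without versions. RNA levels were deposited as TPM per gene, so the depth behind them is unknown. No source used here gives the genome build, a control subtraction or the strand setting of the counting. The H3 and input libraries are not analysed here.

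Long regions were rows over 2000 bp without an identifier. An edge gene had a window of 500 bp before to 1500 bp after its start ending exactly at a region edge, on the plus or the minus strand. Of the RefSeq gene table's 37283 genes none matched an identifier, and no sequence was used. The signals were whole multiples of 1 step in each library (100% within 0.01), so reads were recovered from them for count tests as alternatives.

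Changes between dates were tested with limma 3.58.1 (R 4.3.3) in 1 fit of all dates, two-sided, on log2(signal + 1) for regions with at least 10 in at least 2 of 6 libraries, and on log2(TPM + 1) where 3 or more of 9 libraries reached 1 TPM, both with an intensity trend. The difference between neighbours was tested as right minus left log2(TPM + 1) over all neighbour pairs with both genes passing. P-values were adjusted by Benjamini-Hochberg over all features tested, and changed or called means an adjusted p under 0.05. A log2 change on these scales understates the change of low values. The signal's change had a median over all regions of 0.15, -0.11 and 0.05 (log2, December against October, January against December, January against October), and single regions are given with their tested change and relative to it; the p-values are of the tested change. Orientation sets are described by counts and medians, since regions and genes are not replicates. The tests were tested on simulated data. The members, their orientation classes and all lists were chosen with earlier results of these data known. Named regions had, per orientation and interval, the largest called rise or fall of the mark at 2-gene regions with a signal of at least 177.3, the median of tested regions, on the higher date, or the largest smaller RNA change among pairs at 5 TPM or more, each without overlap between dates. The region of highest signal per kb per orientation, the longest region and the regions that fell to the minimum are named too.

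The alternatives were another pseudocount (0.1), no filter, aligned library medians, quantile normalization, fits of 2 dates, the replicate number as a block, leaving out each library, edgeR 4.0.16 with TMM and DESeq2 1.42.0 on recovered reads, regions over 2500 bp, edges within 10 bp, and a gene cut-off of 5 TPM.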

Additional observations from a re-analysis of the deposited data

How the results depend on the processing

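The count of long regions with a called H3K4me3 change depended most on the processing. From October to December the 84 became 531 with only both dates fitted, 402 with DESeq2, 269 with edgeR, 298 with medians aligned, 374 with quantile normalization, 54 with a pseudocount of 0.1 and 9 without a filter. From December to January the 19 became 35, 163, 53, 64, 125, 11 and 0 in the same order, with 139 long regions at an unadjusted p under 0.05 in limma at that 0. From October to January the 175 became 537 with DESeq2, 418 with edgeR, 469 with medians aligned, 491 with quantile normalization and 68 without a filter. Leaving out each H3K4me3 library in turn gave 13 to 539, 5 to 445 and 107 to 532, and the share of called regions with a gene going the same way 72.5% to 87.5%, 33.6% to 80.0% and 67.9% to 77.4%. The cause was not tested. The RNA counts moved less: leaving out each RNA library gave 1193 to 1354, 588 to 705 and 1187 to 1345 called genes and 368 to 404, 157 to 210 and 342 to 396 called neighbour differences. Without a filter, which admits more pairs, 674 differences were called from October to December and 681 from October to January. The share of pairs going the same way was 58.3% to 62.0%, 47.6% to 61.8% and 57.6% to 66.7% in divergent, 61.8% to 64.9%, 54.8% to 74.1% and 60.4% to 63.5% in tandem, and 50.0% to 62.5%, 40.0% to 62.5% and 40.9% to 50.0% in convergent pairs. Convergent pairs with own regions, limited to starts within 5000 bp, had 67.2% from December to January.

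Undivided by width the medians were 299.9 (divergent), 7.43 (tandem) and 56.9 (convergent). Single libraries gave 76.6, 91.1 and 75.0 for divergent regions (October replicate 2, January replicates 2 and 3), 4.71 for tandem regions (October replicate 3), and 13.1 and 19.7 for convergent regions (October replicates 2 and 3). With both genes at 5 TPM or more the medians were 124 (divergent), 75.2 (tandem) and 57.4 (convergent), and without overlapping pairs the convergent median was 12.2.

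Replicate numbers did not pair the H3K4me3 samples at all dates. Deviations of same-numbered libraries correlated at 0.53 between October and December. They correlated at -0.07 between October and January and at -0.10 between December and January. For same-numbered RNA libraries the values were -0.09 to 0.11. The main fits held no term for the replicate number. With the number as a block 93, 38 and 181 long regions were called, and 341, 133 and 335 with the number crossed, an alternative chosen after the data were seen. Without the filter on low signal, the calls of 8 named regions were lost (adjusted p 0.072 to 0.234).

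Named values that changed sign were all of uncalled changes. The December minus October RNA change of PRUPE_ppa008785mg was -0.089 to 0.194 without single libraries, and January minus October it was -0.140 to 0.082. The H3K4me3 change of December against October at PRUPE_ppa015604mg and PRUPE_ppa025515mg was -0.022 (DESeq2), -0.011 (edgeR), -0.013 (medians aligned) and -0.068 (quantile), and at PRUPE_ppa012174mg and PRUPE_ppa013354mg -0.001 (DESeq2) and -0.027 (quantile). At PRUPE_ppa008487mg and PRUPE_ppa011598mg the January against December change was -0.196 to 0.304 without single libraries. In 22.9% of long regions the signal stood at the minimum throughout, so no change could be seen there. Per library, 6632 to 8398 of all regions stood at this minimum of 1 step and 153 to 181 at 2 steps. How the minimum arose was not tested.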
